A study of Oryza sativa with 8 samples.

Results

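Pathogenesis-related (PR) proteins, chitinases and glucanases of rice leaves were described in 8 RNA-seq libraries. Genes were taken whose deposited name or description held chitinase, glucan endo-1,3-beta, beta-1,3-glucanase, thaumatin, pathogenesis-related, Bet v I or xylanase inhibitor. This wording found 401 genes, and 22 were dropped because they were also described as WRKY or AP2/ERF transcription factors, peroxidases or lipid transfer proteins. The remaining 379 genes, of 43019 in both deposited tables together, are called members here. Of them, 248 fell into 8 PR classes: 33 PR-1 genes, 80 PR-2 glucanases, 15 chitinases of glycoside hydrolase family 19, 5 PR-4 genes, 12 chitinases of family 18, 33 xylanase inhibitors, 62 PR-5 thaumatin-like genes and 8 PR-10 genes. The other members carry the words without being classical PR genes: 112 are aspartic proteases whose description names a xylanase inhibitor type of domain, and 19 have another product, such as glucan synthase-like genes and a (1,3;1,4)-beta-glucanase.

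The study asked how phosphate-starved rice protects its chloroplasts from light-driven reactive oxygen species. Leaves came from seedlings of Oryza sativa grown for 2 weeks on solid Murashige and Skoog medium in glass tubes, with 1 library per group. The dgp1 mutant, the glk1glk2 double mutant and the DJ wild type were each sampled 6 days after transfer to low phosphate (LP, 10 µM KH2PO4) and under control conditions (CK). The ZH11 wild type was sampled 24 h after transfer to medium without phosphate (NP) and under control conditions (CK), and was deposited in a table of its own that was normalized separately. The sources used here do not say what kind of alleles dgp1 and glk1glk2 carry, how many plants were pooled or at what age the control leaves were taken. With 1 library per group there is no replicate check, no test and no error between plants for any difference below. Intervals are 95% exact binomial intervals on estimated cDNA fragments and cover counting error only.

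PR proteins are made by plants after attack by fungi, bacteria or viruses, or after treatment with salicylic or jasmonic acid, and many are secreted into the cell wall space. Chitinases and beta-1,3-glucanases cut the cell wall polymers of fungi, xylanase inhibitors block the enzymes with which fungi open plant walls, thaumatin-like proteins can permeabilise fungal membranes, and PR-1, the most used marker of salicylic acid signalling, is a small secreted protein of the CAP superfamily. PR-10 proteins stay inside the cell and share the fold of the birch allergen Bet v 1. In rice many of these genes stand in tandem arrays of close copies, so that reads may be divided among neighbours. Values of such neighbours are therefore uncertain.

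Library depth differed and limits what can be read from single genes. Between 12525772 and 16566008 reads per library were recovered from the deposited FPKM values. Read numbers per gene peaked at about 182, 146, 50, 22 and 6 reads in glk1glk2_CK, glk1glk2_LP, DJ_CK, dgp1_CK and DJ_LP. A second local maximum stood at 95, 75 and 25 reads in glk1glk2_CK, glk1glk2_LP and DJ_CK, and some genes had fewer reads than the peak number. The peak number was assumed to stand for 1 cDNA fragment, and the fragment totals, floors and intervals rest on this assumption. It left 78613 fragments in glk1glk2_CK, 85793 in glk1glk2_LP, 275444 in DJ_CK, 723036 in dgp1_CK and 2761001 in DJ_LP. For dgp1_LP and both ZH11 libraries no such peak was used, and each read was counted as a fragment. A gene of 1 kb with 3 fragments, the floor used here, stood at 27.1 FPKM in glk1glk2_LP and 30.5 in glk1glk2_CK, against 0.872 in DJ_LP and 11.5 in DJ_CK. A member listed at 0 in a shallow library was not detectable at that depth. Folds given as "at least" divide the higher level by this floor. They leave out the counting error of the higher level, so that the interval can start lower. Scaling each library to its own reads in place of the deposited scale would move the median log2 ratio of all genes by 0.38 in DJ_LP over DJ_CK and in glk1glk2_CK over DJ_CK, -0.25 in dgp1_CK over DJ_CK and 0.11 in dgp1_LP over dgp1_CK. The targeted GLK1 gene had 49.3 and 40.9 FPKM in glk1glk2_LP and glk1glk2_CK, against 130 and 179 FPKM in DJ_LP and DJ_CK, and GLK2 had 53.0 and 32.2 FPKM, against 86.9 and 96.2 FPKM. Both genes were thus detected in the libraries labelled glk1glk2. No gene named DGP1 was found. Of the leaf markers, CAB1R had 4342 FPKM in DJ_LP and 4351 in DJ_CK, whereas 3 others were lower in DJ_LP: CAB2R had 655 FPKM in DJ_LP and 1414 in DJ_CK, LHCB5 had 732 and 3262, and RBCS3 had 2869 and 7784. CHLI had 21.4 FPKM in DJ_LP and 9.96 in DJ_CK. Over all 8 libraries CAB1R ran from 2084 FPKM in glk1glk2_LP to 12930 in dgp1_LP, and CAB2R from 213 in glk1glk2_LP to 14755 in dgp1_LP. Whether these differences in leaf markers bear on the members was not tested. The root markers LSI2 and NRT2.1 and the meristem markers OSH1 and OSH15 were listed at 0 in all 8 libraries, RCC3 had 6.55 FPKM in DJ_CK and 0 elsewhere, and LSI1 had 12.2 to 63.2 FPKM.

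Expression was concentrated in few members. Of the 379 members, 127 were at 0 in all 8 libraries, among them 80 of the 248 genes of the PR classes. In the table of dgp1, glk1glk2 and DJ, 124 members reached 5 FPKM in at least 1 library, of which 87 belonged to the PR classes, and 111 members did so in ZH11. In bulk leaf RNA, fewer cells of a type and less RNA per cell cannot be told apart.

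The summed level of the 8 PR classes differed up to several-fold between libraries. It was 3625 FPKM in dgp1_LP and 1467 in dgp1_CK, 7960 in glk1glk2_LP and 8385 in glk1glk2_CK, and 5406 in DJ_LP and 1206 in DJ_CK. In the ZH11 table it was 4438 FPKM in ZH11_NP and 9115 in ZH11_CK. Thus the sum was higher on low phosphate in DJ and dgp1, almost level in glk1glk2 and lower without phosphate in ZH11. As a share of reads, the PR classes took 0.368% in dgp1_LP and 0.139% in dgp1_CK, 1.32% and 1.37% in glk1glk2_LP and glk1glk2_CK, 0.771% and 0.155% in DJ_LP and DJ_CK, and 0.588% and 1.01% in ZH11_NP and ZH11_CK.

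**Figure D1:**
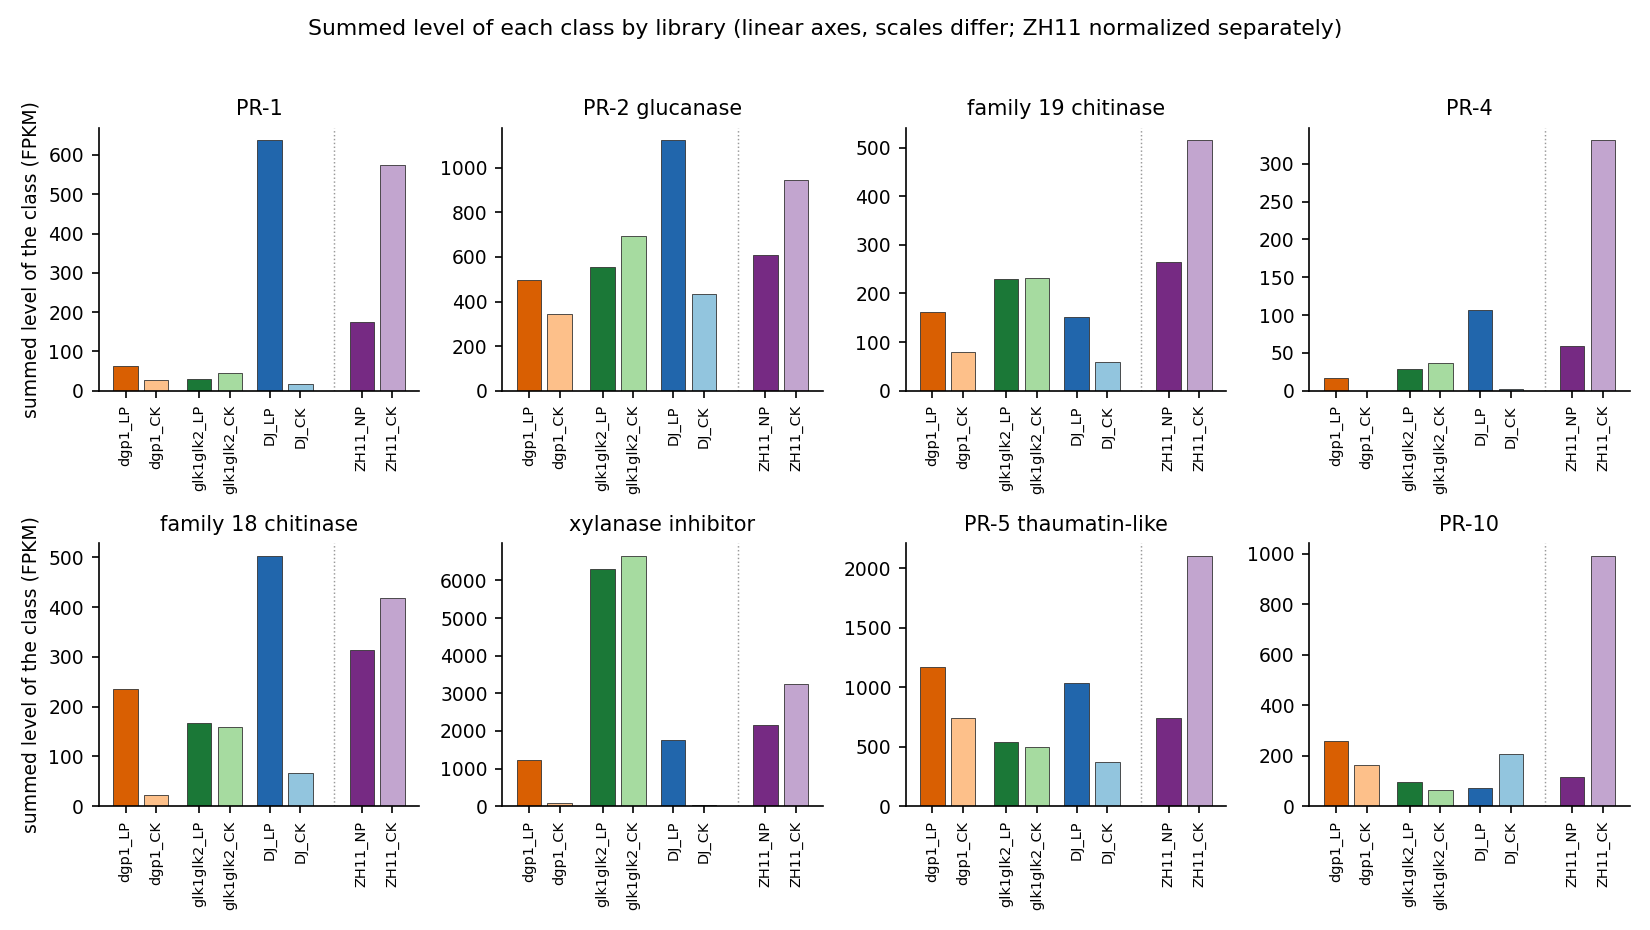
Bars give the summed FPKM of all listed genes of each of the 8 PR classes in each library, on linear axes that start at 0 and differ between panels; the dotted line separates the ZH11 libraries, which were normalized separately. PR-1 stands at 638 FPKM in DJ_LP against 15.9 in DJ_CK, and at 175 in ZH11_NP against 573 in ZH11_CK, while the xylanase inhibitors reach 6312 and 6652 FPKM in glk1glk2_LP and glk1glk2_CK.

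A single gene carried much of this sum. DIP3 (Os05g0247100, chromosome 5, 8902501 to 8903789, in the coordinates of the deposited tables, whose build is not given in the sources used here) is named drought-induced protein 3 and xylanase inhibitor protein 2. It had 1084 FPKM in dgp1_LP and 53.5 in dgp1_CK, 6275 in glk1glk2_LP and 6616 in glk1glk2_CK, 1616 in DJ_LP and 20.0 in DJ_CK, and 2007 in ZH11_NP and 2908 in ZH11_CK. It made up 78.8% of the PR class sum in glk1glk2_LP and 78.9% in glk1glk2_CK, against 29.9% in DJ_LP. DIP3 was low only in the control libraries of dgp1 and DJ.

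The DJ comparison sets 1 wild-type library after 6 days of low phosphate against 1 control library. Genes with at least 5 FPKM in 1 of the libraries compared are called measured here, and those whose ratio of FPKM + 1 was 2-fold or more are given as higher or lower. A gene that reaches 5 FPKM in only 1 of the libraries cannot be called lower in that library. Of 92 measured members, 45 were higher and 16 lower in DJ_LP than in DJ_CK, where over all 15357 genes 23.1% were higher and 24.3% lower. The median log2 ratio of the members was 0.97, against -0.05 over all genes. Per library's own reads, 50 members were higher and 12 lower of 95, with 32.4% of all genes higher and 17.7% lower. Of the 45 higher and 16 lower members, 29 and 14 had a counting interval that left out 1. The aspartic proteases split more evenly, with 6 higher and 5 lower of 20.

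Most PR classes stood higher in DJ_LP. All 3 measured PR-1 genes were higher, as were all 3 PR-4 genes, 11 of 15 thaumatin-like genes, 4 of 6 family 19 chitinases, 3 of 5 family 18 chitinases and 3 of 5 xylanase inhibitors. In DJ_CK only 1 PR-1 gene and 0 PR-4 genes reached 5 FPKM, against 3 and 3 in DJ_LP. The other PR-1 and PR-4 genes were thus measured only through DJ_LP and could not be called lower there. The PR-2 glucanases were mixed, with 8 higher and 4 lower of 22 and a median log2 ratio of 0.05. PR-10 was divided, with 2 higher and 2 lower of 5. The interval left out 1 for 2 of the 3 PR-1 genes, 2 of the 3 PR-4 genes, 10 of the 11 thaumatin-like genes, 1 of the 4 family 19 chitinases, 2 of the 3 family 18 chitinases, all 3 xylanase inhibitors, 6 of the 8 PR-2 glucanases and 0 of the 2 PR-10 genes counted as higher.

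OsPR1 (Os07g0129300, chromosome 7, 1523654 to 1524512), the pathogenesis-related 1a gene, had 485 FPKM in DJ_LP against 14.1 in DJ_CK, a 34.4-fold difference (12.0 to 160.2) that rests on about 3 fragments in DJ_CK. OsPR1b (Os01g0382000, chromosome 1, 15934495 to 15935317) had 133 FPKM in DJ_LP and was listed at 0 in DJ_CK, at least 9.49-fold higher. The third PR-1 gene, OsPR1#012 (Os01g0382400), had 11.4 FPKM in DJ_LP and 0 in DJ_CK, which lies under the floor of DJ_CK and gives no fold.

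The glucanase OsPR2 (Os01g0940700, chromosome 1, 41346647 to 41348373) stood furthest apart, with 679.5 FPKM in DJ_LP and 0 in DJ_CK, at least 76.5-fold higher. Its neighbour Gns6 (Os01g0940800), another beta-1,3-glucanase, had 65.1 FPKM in DJ_LP and 0 in DJ_CK, at least 7.03-fold higher. In the opposite direction, the glucanase Os04g0412300 had 4.19 FPKM in DJ_LP and 45.9 in DJ_CK, 11.0-fold lower (6.37 to 18.7). The symbol OsPR2 is shared by Os01g0940700, Os01g0944700 and Os05g0375400 in the deposited tables, so that the identifier is needed.

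Among chitinases, Oschib1 (Os10g0416500, chromosome 10, 14590045 to 14591113), a family 18 enzyme also named pathogenesis-related protein 8, had 316 FPKM in DJ_LP and 4.67 in DJ_CK, 67.6-fold higher (14.4 to 1295), with only about 1.3 fragments in DJ_CK. C10728 (Os01g0660200), of the same family, had 109.7 FPKM in DJ_LP and 10.9 in DJ_CK, 10.0-fold higher (3.68 to 41.5). Cht8 (Os10g0542900), a family 19 chitinase, had 70.8 FPKM in DJ_LP and 3.51 in DJ_CK, where it rested on less than 1 fragment, and no fold is given. The PR-4 genes, which carry the barwin domain, followed the same direction: OsPR4c (Os11g0592000) had 67.6 FPKM in DJ_LP and 0 in DJ_CK, at least 4.36-fold higher.

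The xylanase inhibitor DIP3 was 80.9-fold higher in DJ_LP than in DJ_CK (38.7 to 206), with the levels given above. A pair of neighbouring genes on chromosome 6 had the same direction. An unannotated locus (14641136 to 14642048), described as a xylanase inhibitor, had 102 FPKM in DJ_LP and 0 in DJ_CK, at least 8.11-fold higher, and Os06g0356800 had 38.1 FPKM in DJ_LP and 0 in DJ_CK, at least 3.65-fold higher.

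PR-10 genes did not move as a block. OsBetvI (Os08g0374000, chromosome 8, 17510752 to 17511689), named for the Bet v I domain, had 1.47 FPKM in DJ_LP and 118 in DJ_CK, 80.5-fold lower (27.7 to 319). Os04g0465600 was listed at 0 in DJ_LP and had 48.3 FPKM in DJ_CK, at least 41.9-fold lower. OsPR10a (Os12g0555500), known in rice as a probenazole-induced gene, had 7.45 FPKM in DJ_LP and 0 in DJ_CK, where the floor does not allow a fold.

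**Figure D2:**
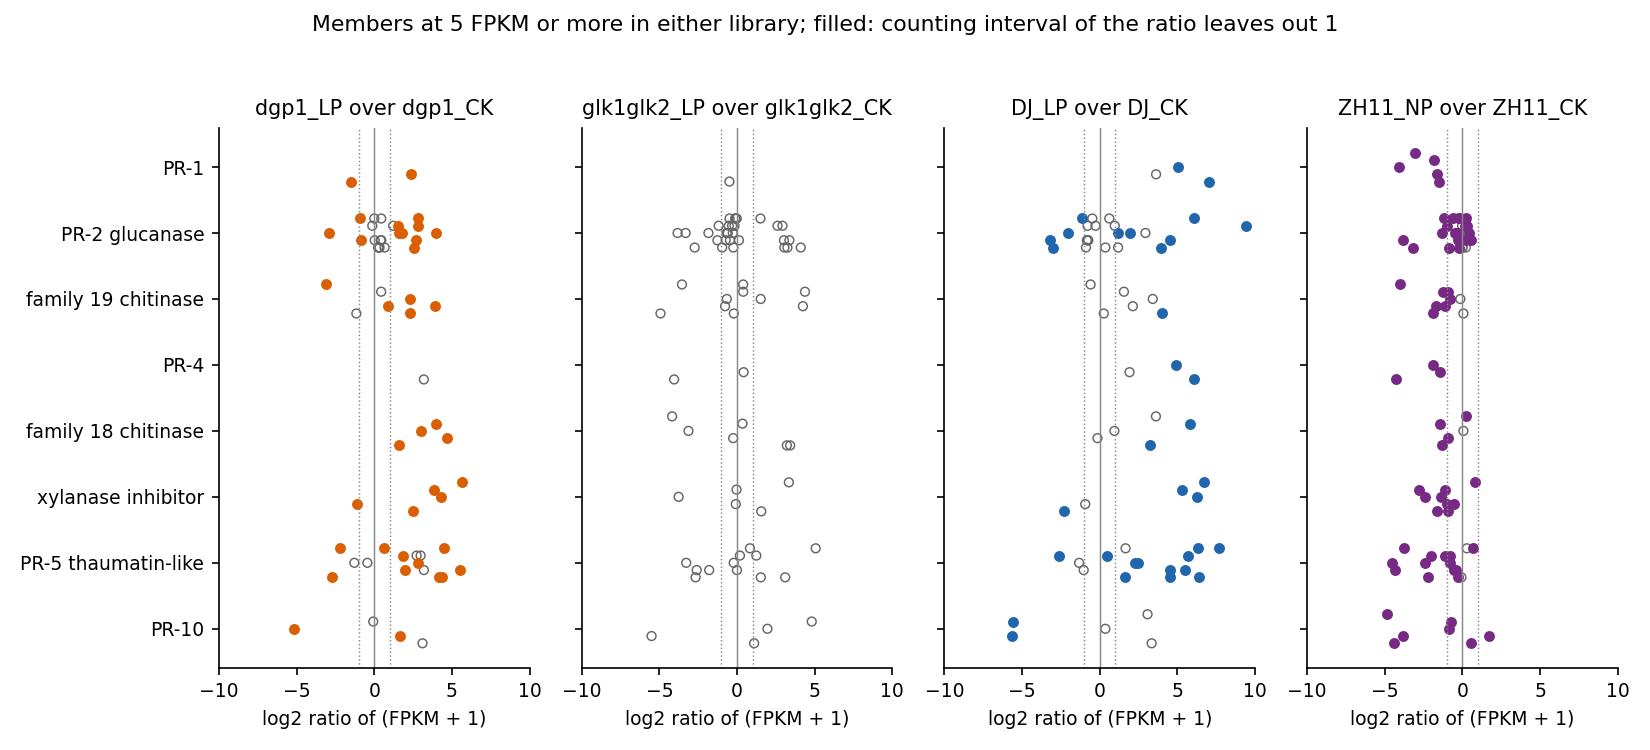
Each point is a member of the 8 PR classes at 5 FPKM or more in either library, placed by its log2 ratio of FPKM + 1 in the low-phosphate comparisons of dgp1, glk1glk2 and DJ and in the no-phosphate comparison of ZH11; filled points have a counting interval that leaves out a ratio of 1, and dotted lines mark a 2-fold difference. Filled points lie mostly to the right in dgp1 and DJ and to the left in ZH11, and glk1glk2 has none among the members past 2-fold at the fragment size used.

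In dgp1 the low-phosphate comparison also held more higher than lower members. Of 90 measured members, 47 were higher and 12 lower in dgp1_LP than in dgp1_CK, with 24.0% of all genes higher and 20.7% lower. The median log2 ratio of the members was 1.36, against 0.03 over all genes, and 41 of the 47 and 10 of the 12 had an interval that left out 1. Family 18 chitinases were higher in 4 of 4 cases, xylanase inhibitors in 4 of 5 with 1 lower, thaumatin-like genes in 10 of 15 with 3 lower, and PR-2 glucanases in 9 of 22 with 1 lower. Other classes were divided: PR-1 had 1 higher and 1 lower of 2, both with an interval that left out 1. Family 19 chitinases had 3 higher and 2 lower of 7, and PR-10 had 2 higher and 1 lower of 4. The 1 measured PR-4 gene was higher, within counting error. The aspartic proteases were higher in 12 of 24, with 2 lower.

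Named members gave the following values in dgp1. The family 18 chitinase Os01g0687400 had 126 FPKM in dgp1_LP and 3.93 in dgp1_CK, 32.2-fold higher (10.3 to 181) with about 2.64 fragments in dgp1_CK, whereas it had 25.1 FPKM in DJ_LP and 27.9 in DJ_CK. The thaumatin-like gene Os10g0147200 had 44.6 FPKM in dgp1_LP and 0 in dgp1_CK, at least 5.58-fold higher, and the unannotated xylanase inhibitor locus of chromosome 6 had 50.0 FPKM in dgp1_LP and 0 in dgp1_CK, at least 8.62-fold higher. OsPR1 had 56.7 FPKM in dgp1_LP and 10.1 in dgp1_CK, 5.62-fold higher (2.37 to 17.7). OsPR2 (Os01g0940700) had 11.4 FPKM in dgp1_LP and 3.09 in dgp1_CK, 3.70-fold higher (1.08 to 25.5) with about 2.27 fragments in dgp1_CK. DIP3 was 20.3-fold higher in dgp1_LP than in dgp1_CK (14.8 to 28.5).

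OsBetvI kept the direction seen in DJ, with 1.21 FPKM in dgp1_LP and 77.7 in dgp1_CK, 64.2-fold lower (33.1 to 132). Among the aspartic proteases, Os12g0583300 had 5.56 FPKM in dgp1_LP and 250.6 in dgp1_CK, 45.1-fold lower (35.8 to 57.0), and Os02g0720600 had 34.4 FPKM in dgp1_LP and 0.324 in dgp1_CK, less than 1 fragment. The dgp1 and DJ comparisons share no library. Of 78 members measured in both, 38 were higher in dgp1 and 33 in DJ, and 21 were higher in both, 55.3% and 63.6% of these. Over all genes, the 1227 genes higher in both were 43.9% of those higher in dgp1 and 42.7% of those higher in DJ. Of the 15 members lower in DJ, 6 were also lower in dgp1 and 6 were higher there, 40% each, against 53.2% and 10.4% of the 3057 genes lower in DJ. That these shares differ was not tested.

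In glk1glk2 few if any differences between low phosphate and control could be told from counting error at this depth. Of 99 measured members, 30 were higher and 22 lower in glk1glk2_LP than in glk1glk2_CK, with 23.3% of all genes higher and 23.1% lower, and the interval left out 1 for 0 of these 52 members. With a smaller fragment size, read from a second local maximum of the read numbers, it left out 1 for 4 of the higher and 3 of the lower members. The median log2 ratio was -0.03. DIP3, the member with the most fragments in both libraries, had 6275 FPKM in glk1glk2_LP and 6616 in glk1glk2_CK, a ratio of 0.948 (0.862 to 1.04). The thaumatin-like gene Os12g0630500 had 77.0 and 77.1 FPKM in glk1glk2_LP and glk1glk2_CK.

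The members with the largest ratios in glk1glk2 were seen in 1 library only. TOND1 (Os12g0630100), a thaumatin-like gene known in rice for tolerance of nitrogen deficiency, had 32.6 FPKM in glk1glk2_LP and 0 in glk1glk2_CK, and OsPR10a had 27.1 and 0. Oschib1 was listed at 0 in glk1glk2_LP and had 17.1 FPKM in glk1glk2_CK, and the PR-10 gene Os04g0593400 had 0 and 44.2. Each of these values is at or under the floor of its libraries, and no fold is given. The family 19 chitinase Cht3 (Os06g0726100) was listed at 0 in glk1glk2_LP, where its floor is 23.2 FPKM, and had 29.4 FPKM in glk1glk2_CK. Its interval did not leave out 1.

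Under control conditions few differences between dgp1 and DJ could be told from counting error. Of 67 measured members, 16 were higher and 20 lower in dgp1_CK than in DJ_CK, with 16.1% of all genes higher and 14.1% lower, and 5 and 9 of them had an interval that left out 1. DIP3 was among the higher ones, with 53.5 FPKM in dgp1_CK and 20.0 in DJ_CK, 2.68-fold higher (1.17 to 7.27). Os01g0687400 was among the lower ones, with 3.93 FPKM in dgp1_CK and 27.9 in DJ_CK, 7.10-fold lower (1.65 to 47.2). Os04g0465600, of PR-10, was listed at 0 in dgp1_CK and had 48.3 FPKM in DJ_CK, at least 6.90-fold lower. Cht10 (Os01g0287600) and OsPR1#012 had 10.6 and 14.7 FPKM in dgp1_CK and 0 in DJ_CK, within the floor.

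On low phosphate the members split between dgp1 and DJ on the deposited scale, and the measured PR-1 and PR-4 genes were lower in dgp1. In dgp1_LP, 30 members were higher and 31 lower than in DJ_LP, of 98 measured, with 20.9% of all genes higher and 13.4% lower, and all 61 had an interval that left out 1. With levels taken per library's own reads, which moved the median of all genes by -0.51 on the log2 scale, 17 members were higher and 42 lower of 99, with 12.7% of all genes higher and 27.0% lower. All 3 measured PR-1 genes and all 3 PR-4 genes were lower, as were 3 of 5 family 18 chitinases. Of 18 thaumatin-like genes, 8 were lower and 7 higher. In dgp1_LP only 1 PR-1 gene and 1 PR-4 gene reached 5 FPKM, against 3 and 3 in DJ_LP. The other PR-1 and PR-4 genes were thus measured only through DJ_LP and could not be called higher in dgp1_LP. OsPR1 had 56.7 FPKM in dgp1_LP and 485 in DJ_LP, 8.55-fold lower (7.79 to 9.40). OsPR1b had 0.808 FPKM in dgp1_LP and 133 in DJ_LP, 164-fold lower (85.7 to 362).

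OsPR2 (Os01g0940700) had 11.4 FPKM in dgp1_LP and 679.5 in DJ_LP, 59.4-fold lower (51.4 to 68.8). Oschib1 had 14.7 FPKM in dgp1_LP and 316 in DJ_LP, 21.5-fold lower (18.5 to 24.9). The thaumatin-like gene Os12g0629600 was listed at 0 in dgp1_LP and had 84.1 FPKM in DJ_LP, at least 203-fold lower. OsPR1, OsPR2 and Oschib1 are also among those named above as higher in DJ_LP than in DJ_CK, a comparison that shares the DJ_LP library.

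Other members were higher in dgp1_LP. Os12g0569500, a thaumatin-like gene and the member of its class with the highest mean over the 6 libraries, had 887 FPKM in dgp1_LP and 291 in DJ_LP, 3.05-fold higher (2.86 to 3.25). It was present in every library, with 578 FPKM in dgp1_CK, 275 in glk1glk2_LP, 318 in glk1glk2_CK and 211 in DJ_CK. The chitinase Os01g0687400 was 5.03-fold higher in dgp1_LP than in DJ_LP (4.12 to 6.19), and the PR-10 gene Os04g0593400 had 240.6 FPKM in dgp1_LP and 51.7 in DJ_LP, 4.65-fold higher (3.74 to 5.84). The aspartic protease Os06g0118700 had 33.6 FPKM in dgp1_LP and 0.979 in DJ_LP, 34.3-fold higher (16.0 to 90.7).

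Many of the calls between glk1glk2 and DJ were within counting error, and whether the genotype difference itself differed between the conditions was not tested. Under control conditions 43 members were higher and 21 lower in glk1glk2_CK than in DJ_CK, of 92 measured, with 27.4% of all genes higher and 31.3% lower. The interval left out 1 for 16 and 7 of them. Family 19 chitinases were higher in 7 of 9 cases and PR-2 glucanases in 13 of 24, with 3 of the 7 and 6 of the 13 beyond counting error.

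DIP3 had 6616 FPKM in glk1glk2_CK and 20.0 in DJ_CK, 331-fold higher (158 to 847). It rested on about 839 fragments in glk1glk2_CK and 6.70 in DJ_CK. Cht10 had 38.6 FPKM in glk1glk2_CK and 0 in DJ_CK, at least 3.54-fold higher by the floor, with an interval that starts at 1.75. Os12g0630500 had 77.1 FPKM in glk1glk2_CK and 0 in DJ_CK, at least 6.44-fold higher by the floor, with an interval that starts at 4.02. OsBetvI had 14.0 FPKM in glk1glk2_CK and 118 in DJ_CK, 8.43-fold lower (1.46 to 265), a ratio that rests on about 1.09 fragments in glk1glk2_CK.

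On low phosphate 31 members were higher and 31 lower in glk1glk2_LP than in DJ_LP, of 101, with 23.5% of all genes higher and 26.0% lower, and 14 and 16 of them had an interval that left out 1. OsPR1 was listed at 0 in glk1glk2_LP and had 485 FPKM in DJ_LP, at least 15.2-fold lower. OsPR2 (Os01g0940700) had 11.1 FPKM in glk1glk2_LP and 679.5 in DJ_LP, 61.4-fold lower (14.8 to 760), a ratio that rests on about 1.59 fragments in glk1glk2_LP. Oschib1 was listed at 0 in glk1glk2_LP and had 316 FPKM in DJ_LP, at least 12.5-fold lower.

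DIP3 went the other way, with 6275 FPKM in glk1glk2_LP and 1616 in DJ_LP, 3.88-fold higher (3.62 to 4.16). Cht10 had 33.4 FPKM in glk1glk2_LP and 0.643 in DJ_LP, 52.0-fold higher (7.84 to 470.4) with about 2.33 fragments in DJ_LP. OsBetvI had 57.4 FPKM in glk1glk2_LP and 1.47 in DJ_LP, 39.1-fold higher (8.45 to 197).

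**Figure D3:**
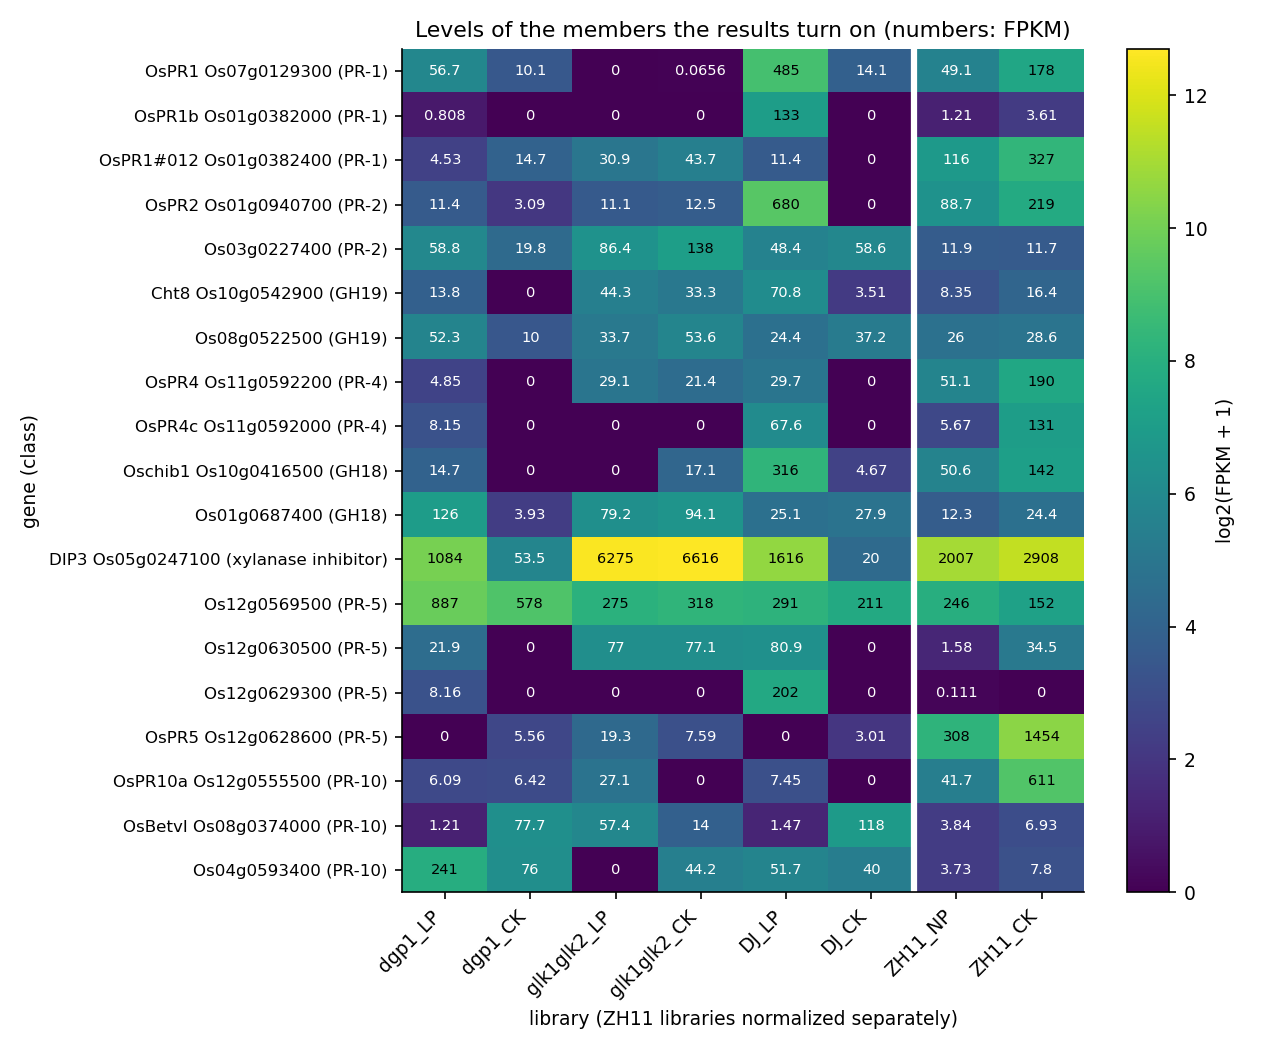
Rows are 19 members with their class (GH, glycoside hydrolase family), columns the 8 libraries, colour the log2 of FPKM + 1 and the number in each cell the FPKM; the ZH11 libraries were normalized separately. OsPR1, OsPR1b, OsPR2, Oschib1 and Os12g0629300 are brightest in DJ_LP among the first 6 libraries, DIP3 is bright in all libraries but dgp1_CK and DJ_CK, and OsBetvI is at 1.21 and 1.47 FPKM in dgp1_LP and DJ_LP.

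In ZH11, a library taken 24 h after transfer to medium without phosphate was compared with its control, with each read counted as a fragment. Of 111 measured members, 2 were higher and 40 lower in ZH11_NP than in ZH11_CK, with 1.61% of all genes higher and 3.19% lower. The median log2 ratio was -0.53, against -0.03 over all genes, and the intervals of all 42 left out 1. All 5 PR-1 genes were lower, as were all 3 PR-4 genes, 5 of 9 family 19 chitinases, 5 of 9 xylanase inhibitors, 7 of 15 thaumatin-like genes and 2 of 5 family 18 chitinases. Of the PR-2 glucanases only 5 of 27 were lower, and of the aspartic proteases 4 of 22, with 1 higher.

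OsPR5 (Os12g0628600), a thaumatin-like gene, was the member with the second highest level in ZH11_CK after DIP3, with 308 FPKM in ZH11_NP and 1454 in ZH11_CK, 4.72-fold lower (4.57 to 4.89). In the table of dgp1, glk1glk2 and DJ it did not exceed 19.3 FPKM, reached in glk1glk2_LP. OsPR1 had 49.1 FPKM in ZH11_NP and 178 in ZH11_CK, 3.63-fold lower (3.34 to 3.96). OsPR2 (Os01g0940700) had 88.7 FPKM in ZH11_NP and 218.5 in ZH11_CK, 2.46-fold lower (2.33 to 2.60). OsPR4c had 5.67 FPKM in ZH11_NP and 131 in ZH11_CK, 23.1-fold lower (18.3 to 29.7).

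The lowest ratios belonged to PR-10 and PR-5. The PR-10 genes RPR10b (Os12g0555200), PR10 (Os12g0555300) and OsPR10a (Os12g0555500) stand side by side on chromosome 12, between 22591681 and 22601182. RPR10b had 8.42 FPKM in ZH11_NP and 267 in ZH11_CK, 31.8-fold lower (26.4 to 38.6). PR10 had 2.01 and 63.1 FPKM, 31.5-fold lower (18.5 to 58.1), and OsPR10a had 41.7 and 611 FPKM, 14.7-fold lower (13.5 to 16.0). The gene next to them, RSOsPR10 (Os12g0555000), is known as a root-specific PR-10 gene and is not a member by the wording used, but had 26.5 FPKM in ZH11_NP and 591 in ZH11_CK. The other root markers gave no such difference: LSI1 had 14.2 FPKM in ZH11_NP and 15.9 in ZH11_CK, and RCC3, LSI2 and NRT2.1 were at 0 in both. Another gene named OsPR5 (Os03g0661600) had 2.82 FPKM in ZH11_NP and 88.6 in ZH11_CK, 31.4-fold lower (23.9 to 42.0).

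The members counted as higher in ZH11_NP were the PR-10 gene Os04g0465600, with 5.56 FPKM in ZH11_NP and 1.00 in ZH11_CK, and the aspartic protease Os12g0583300, with 6.35 and 2.27 FPKM. They were named after their values were seen. DIP3 was 1.45-fold lower in ZH11_NP (1.43 to 1.47), within 2-fold.

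Members measured in both the DJ and the ZH11 comparison often had opposite directions, which the minimum level helped to set. The comparisons share no library, and differ in cultivar, in the phosphate left in the medium and in time. Of 80 members measured in both, 36 were higher in DJ_LP and 20 lower in ZH11_NP, and all 20 were among the 36. Many of the 20, such as OsPR2 (Os01g0940700), OsPR4c and Os12g0630500, were at 0 in DJ_CK. These were measured in DJ only through DJ_LP, so that higher was their only possible call. The rest of the 40 members lower in ZH11_NP were not measured in DJ. Over all genes, under the same minimum level, 261 were lower in ZH11_NP, of which 148, or 56.7%, were higher in DJ_LP. In 14 of the 20 members both intervals left out 1. Both members higher in ZH11_NP were lower in DJ_LP.

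The 20 members came from all 8 PR classes: 5 thaumatin-like genes, 3 PR-4 genes, 2 each of PR-1, PR-2, family 19 and family 18, and 1 each of the xylanase inhibitors and PR-10, with 2 aspartic proteases besides. Oschib1, for example, had a log2 ratio of 5.80 in DJ and of -1.48 in ZH11, and Os12g0630500 one of 6.36 in DJ and of -3.78 in ZH11. In dgp1, of 17 members lower in ZH11_NP among 77 measured in both, 12 were higher in dgp1_LP, or 70.6%, against 51.6% over all genes. That these shares differ was not tested.

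**Figure D4:**
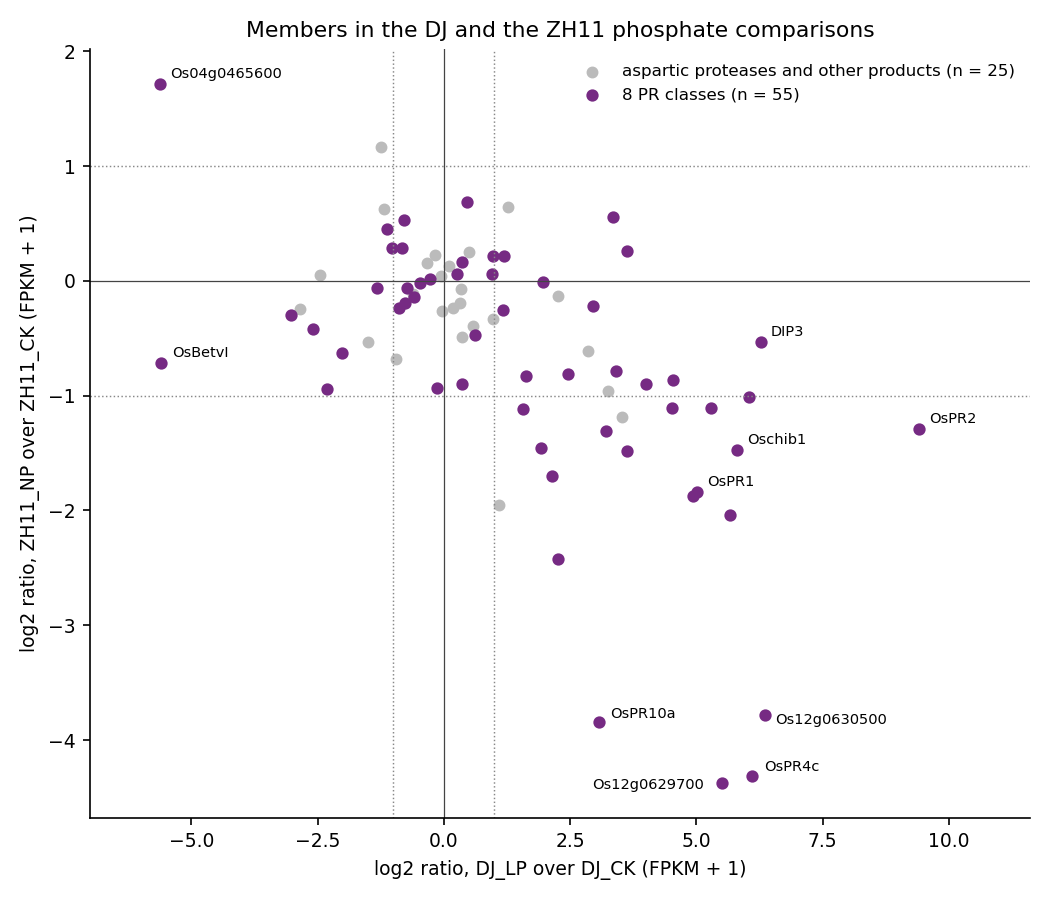
Each point is 1 of the 80 members at 5 FPKM or more in either library of both comparisons, placed by its log2 ratio in DJ_LP over DJ_CK (x) and in ZH11_NP over ZH11_CK (y), both on FPKM + 1; dotted lines mark 2-fold differences. The lower right corner holds 20 members, among them OsPR4c and Os12g0630500, and the lower left corner holds 0.

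Measured neighbours mostly shared a direction within a comparison in the thaumatin-like array of chromosome 12, which holds 7 members between 26913087 and 26981082. In DJ, 6 of the 7 were measured and all 6 were higher in DJ_LP, where 23.1% of all genes were higher. All but TOND1 were measured only through DJ_LP and were at 0 in DJ_CK, so that higher was their only possible call. In dgp1, 4 were higher and 1 lower of 5 measured, with 24.0% of all genes higher and 20.7% lower. Os12g0629300 had 202 FPKM in DJ_LP, Os12g0629600 had 84.1, Os12g0630500 had 80.9, TOND1 had 74.3, Os12g0630200 had 49.4 and Os12g0629700 had 44.3, and in DJ_CK all were at 0 except TOND1 with 14.7 FPKM. OsPR5 (Os12g0628600), at one end of the array, was under 5 FPKM in both libraries, with 0 FPKM in DJ_LP and 3.01 in DJ_CK, and shows no direction in DJ.

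In ZH11 the picture differed by gene. Of the array, 5 members were measured, and each of them was lower in ZH11_NP, led in level by OsPR5, where 3.19% of all genes were lower. Os12g0629300 and Os12g0629600, the pair with the highest levels of the array in DJ_LP, had 0.111 and 0 FPKM in ZH11_NP and 0 and 0 in ZH11_CK. In dgp1_LP all 6 genes other than OsPR5 were lower than in DJ_LP, where 13.4% of all genes were lower. This comparison shares the DJ_LP library with that of DJ. How the authors assigned reads that match several copies of such an array is not given in the sources used here.

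**Figure D5:**
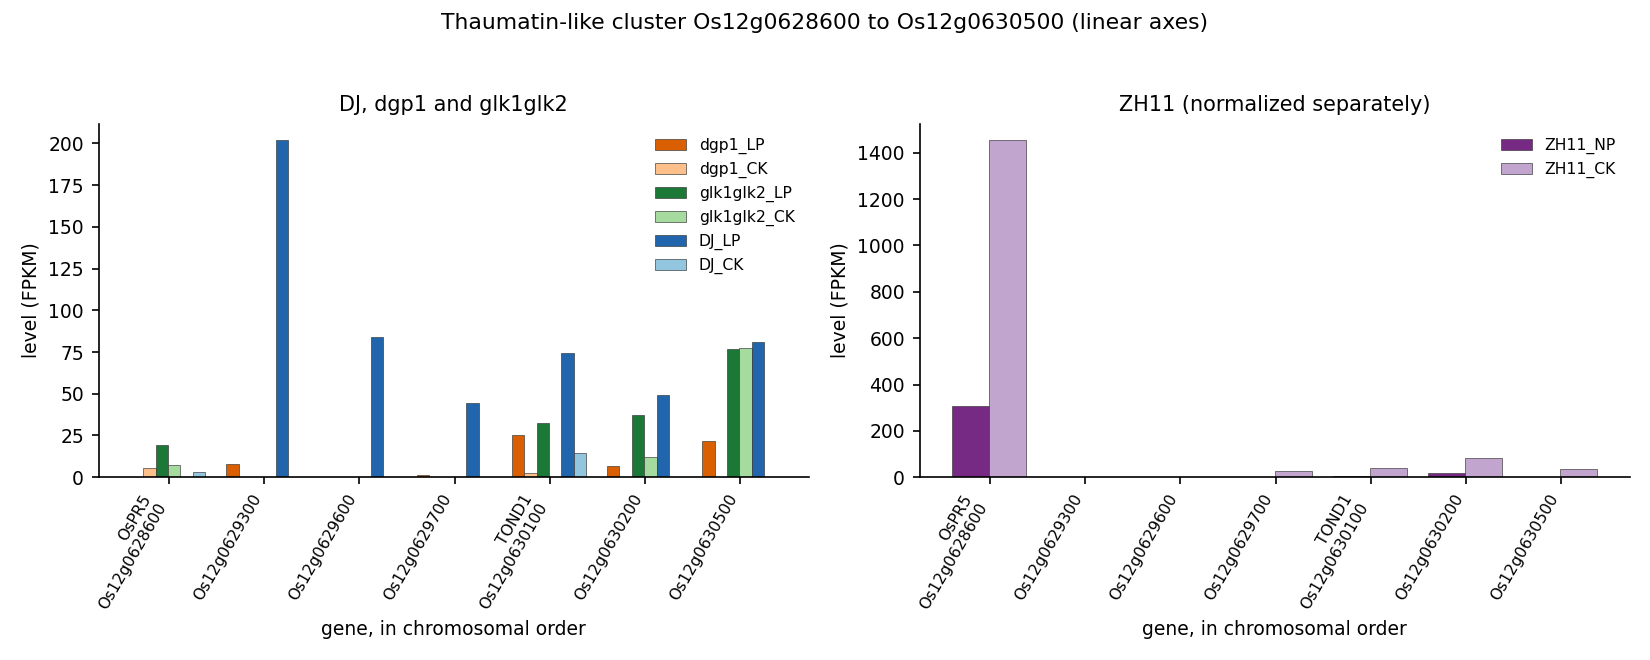
Bars give the FPKM of the 7 thaumatin-like genes of the chromosome 12 array in chromosomal order, on linear axes from 0, in the table of dgp1, glk1glk2 and DJ (left) and in the separately normalized ZH11 table (right). All genes but OsPR5 are highest in DJ_LP on the left, and OsPR5 reaches 1454 FPKM in ZH11_CK on the right.

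Other arrays differed in how many of their members were measured. The PR-1 array of chromosome 7 holds 16 members between 1319034 and 1524512, of which OsPR1 alone was measured in DJ and dgp1, and 3 were in ZH11, all lower in ZH11_NP. The xylanase inhibitor arrays of chromosomes 1 and 11 hold 12 members each, of which 2 and 0 were measured in DJ. Of the 2 on chromosome 1, 0 were higher and 1 was lower in DJ_LP. In ZH11, 1 and 3 were measured, and 0 and 2 of them were lower in ZH11_NP. The family 18 array of chromosome 10 holds 3 members, all measured in DJ and in ZH11, with 2 higher in DJ_LP and 1 lower in ZH11_NP. A second thaumatin-like array of chromosome 12, Os12g0568900 to Os12g0569500, holds 3 members, all measured in DJ, with 2 higher in DJ_LP. Other arrays had a lower member in DJ_LP. The PR-2 array Os01g0946500 to Os01g0947700 and the thaumatin-like array Os09g0536300 to Os09g0536550 each had 1 measured member in DJ, which was lower. In the PR-2 array Os01g0940700 to Os01g0941500, 2 were measured in DJ and both were higher. Not every array is listed here. The 5 PR-4 members all stand on chromosome 11 between 22495078 and 22512374. Of these, 3 were measured in DJ, all higher in DJ_LP, and 3 in ZH11, all lower in ZH11_NP.

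Genes matched to a list of defence signalling symbols gave other counts. For 21 of 23 listed symbols, 24 genes were found, among them chitin receptors, NPR1 homologues, kinases and WRKY factors. The 2 genes matched as SPL11 are described as squamosa promoter-binding-like, so that they match by symbol only, but they enter all counts below. MPK3 and MPK6 matched 2 genes each, and Os02g0148100, matched as MPK3, is named MAP kinase 14. Of the 24 genes, 4 were higher and 4 lower of 21 in DJ_LP over DJ_CK, where 23.1% of all genes were higher and 24.3% lower. The higher ones include the SPL11 match Os06g0663500, with 9.49 FPKM in DJ_LP and 3.44 in DJ_CK. In glk1glk2_LP over glk1glk2_CK 1 was higher and 3 lower of 20 (all genes 23.3% and 23.1%), and in ZH11_NP over ZH11_CK 0 were higher and 2 lower of 23 (all genes 1.61% and 3.19%). In dgp1_LP over dgp1_CK 9 were higher and 1 lower of 24, or 37.5% and 4.17%, where 24.0% of all genes were higher and 20.7% lower. In dgp1_LP over DJ_LP 12 were higher and 1 lower of 24, where 20.9% of all genes were higher and 13.4% lower, and per library's own reads 8 were higher and 3 lower, where 12.7% of all genes were higher and 27.0% lower. Between the mutants and DJ under control conditions, 2 were higher and 3 lower of 22 in dgp1_CK over DJ_CK (all genes 16.1% and 14.1%), and 2 and 5 of 21 in glk1glk2_CK over DJ_CK (all genes 27.4% and 31.3%). In glk1glk2_LP over DJ_LP, 2 were higher and 1 lower of 20 (all genes 23.5% and 26.0%).

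WRKY45 (Os05g0322900), a transcription factor of salicylic acid signalling in rice, had 591 FPKM in dgp1_LP, 95.5 in dgp1_CK, 39.2 in glk1glk2_LP, 17.2 in glk1glk2_CK, 17.3 in DJ_LP and 61.9 in DJ_CK. It was 34.3-fold higher in dgp1_LP than in DJ_LP (28.2 to 42.1) and 3.59-fold lower in DJ_LP than in DJ_CK (2.26 to 5.51). The chitin receptor gene CEBIP (Os03g0133400) had 269.7 FPKM in dgp1_LP and 26.5 in dgp1_CK, 10.2-fold higher (6.75 to 16.1), and 55.7 FPKM in DJ_LP. PAD4 (Os11g0195500), a lipase-like regulator of basal defence, had 95.9 FPKM in dgp1_LP and 29.2 in dgp1_CK, 3.29-fold higher (2.39 to 4.64), and 20.5 FPKM in DJ_LP. NRR (Os01g0130200) had 202 FPKM in dgp1_LP and 26.1 in dgp1_CK, but 13.6 in DJ_LP and 116 in DJ_CK. MPK3 (Os03g0285800) had 77.9 FPKM in dgp1_LP and 8.36 in dgp1_CK. LYP6 (Os06g0208800) went the other way in dgp1, with 6.68 FPKM in dgp1_LP and 18.2 in dgp1_CK. The library with the highest WRKY45 level, dgp1_LP, had 56.7 FPKM of OsPR1, and DJ_LP, with the highest OsPR1 level of its table, had 17.3 FPKM of WRKY45. Genes of this paragraph were picked after their values were seen, and a link between WRKY45 and OsPR1 was not tested. NPR1 (Os01g0194300), the receptor-like coactivator of salicylic acid signalling, had 5.42 FPKM in dgp1_LP and 13.6 in DJ_LP, 2.52-fold lower (1.94 to 3.26).

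A pair of members varied little in listed level over the 6 libraries of the first table. OsAsp3 (Os12g0177500), an aspartic protease, ran from 40.4 FPKM in DJ_LP to 59.6 in dgp1_LP, and the glucan synthase-like gene OsGSL1 (Os06g0112800) ran from 56.8 in dgp1_CK to 83.3 in DJ_CK. By contrast, the glucanase Os03g0227400, with the second highest mean of its class, ran from 19.8 in dgp1_CK to 138 in glk1glk2_CK, and had 11.9 FPKM in ZH11_NP and 11.7 in ZH11_CK.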

How the data were processed

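The authors deposited 2 tables of expression values for RNA-seq of rice leaves, of 40718 and 38977 genes. Their header gives no unit. The deposited values behave as FPKM: multiplied by gene length they came out, for each library, as whole multiples (within 0.01, 100% of values) of a smallest unit, which was read as 1 read. Libraries were made with a directional kit, per the labels' protocols. Aligner, counting tool, use of strand and build are not given in the sources used here. Reads were recovered from that unit; the most frequent read number from 5 to 600 was taken as 1 fragment, which makes intervals approximate. Ratios used FPKM + 1, a 2-fold call and at least 5 FPKM in 1 library. A fold against 0 used a floor of 3 fragments and took no account of the counting error of the higher level. Intervals are exact conditional binomial (SciPy 1.17.1). With FPKM in place of counts and n = 1, no model was fitted. Named genes with at least 10 FPKM were the 3 highest and 3 lowest ratios of each of 8 comparisons and the 2 highest means of each class, 45 in all; others named are their neighbours or were chosen after their values were seen. Members and lists were chosen with earlier results of these data known, and the 8 PR classes were separated from other products after their descriptions were read. Calls were tried on simulated data only for highly expressed genes with a set fold. Calls near the minimum level and false calls in unchanged genes were not checked. No column was left unused.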

Additional observations from a re-analysis of the deposited data

Results flagged for a closer look

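In 4 members the low-phosphate difference had opposite directions in dgp1 and DJ, each at least 2-fold with an interval that left out 1, although with 1 library per group the difference between the genotypes was not tested. The xylanase inhibitor Os01g0937100 had a log2 ratio of 2.49 in dgp1 (9.10 FPKM in dgp1_LP, 0.800 in dgp1_CK) and of -2.31 in DJ (0.380 FPKM in DJ_LP, 5.86 in DJ_CK). The other 3 are aspartic proteases with an inhibitor-type domain. Os02g0720900 had log2 ratios of 1.34 in dgp1 and -1.51 in DJ. Os06g0118700 had 2.64 in dgp1, with 33.6 FPKM in dgp1_LP and 4.57 in dgp1_CK, and -2.85 in DJ, with 0.979 FPKM in DJ_LP and 13.2 in DJ_CK. Os06g0304600 had 3.98 in dgp1, with 64.9 FPKM in dgp1_LP and 3.19 in dgp1_CK, and -1.18 in DJ, with 12.3 FPKM in DJ_LP and 29.3 in DJ_CK.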

How the results depend on the processing

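Depth and the minimum level both bear on these counts: 9 of 16 moved by over 1.5 times when the interval was required and 8 of 16 without a minimum level. Only calls with an interval that leaves out 1 were 29 higher in DJ_LP over DJ_CK, 0 higher and 0 lower in glk1glk2_LP over glk1glk2_CK, 5 and 9 in dgp1_CK over DJ_CK, 16 and 7 in glk1glk2_CK over DJ_CK, and 14 and 16 in glk1glk2_LP over DJ_LP. Reading a second local maximum of read numbers as the fragment size, an alternative added once the values were known, gave 4 and 3 in glk1glk2_LP over glk1glk2_CK, 8 and 9 in dgp1_CK over DJ_CK, 23 and 10 in glk1glk2_CK over DJ_CK, and 19 lower in glk1glk2_LP over DJ_LP. Without a minimum level, 79 were higher and 25 lower in DJ, 22 lower in dgp1, 37 higher and 37 lower in dgp1_CK over DJ_CK, 37 lower in glk1glk2_CK over DJ_CK, 50 lower in dgp1_LP over DJ_LP and 72 lower in glk1glk2_LP over DJ_LP. At a minimum of 10 FPKM, 10 were higher in dgp1_CK over DJ_CK and 0 in ZH11; with a pseudocount of 5, 13 were lower in dgp1_CK over DJ_CK and 0 higher in ZH11. Per library's own reads, 17 were higher in dgp1_LP over DJ_LP. Within the 8 PR classes, separated after the data were seen, 10 were lower in DJ, 11 lower in dgp1_CK over DJ_CK and 1 higher in ZH11. The cause of these shifts beyond the number of genes counted was not tested. Of 48 named ratios, 18 moved with a pseudocount of 5 and 8 per library's own reads, with none reversed; of 8 medians, that of dgp1_LP over DJ_LP moved, to -0.64 per library's own reads. No paired analysis was possible because each group has 1 library and the labels carry no replicate numbers.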
